A study of Penicillium oxalicum with 24 samples.

Results

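A group of 29 genes among the 9832 of the deposited gene table of *Penicillium oxalicum* is described here. They were chosen by measured values. A member had a mean of at least 5 RPKM (reads divided by gene length and library total) in the ΔcreA-gpdA(p)::clrB strain on cellulose. That mean was also at least 2.5 times the mean of ΔcreA and at least 2.5 times the mean of wild-type on cellulose, and the ΔcreA mean was below 2 times the wild-type mean. The clrB gene itself (PDE_05999) was left out. The working description of the group was genes raised by constitutive clrB alone, and the other groups of the study go against the word alone, since 18 of the 29 had a higher mean in some other group than in ΔcreA-gpdA(p)::clrB. Only 11 had their highest of the 8 group means in ΔcreA-gpdA(p)::clrB. The wild-type on glucose held the highest mean of 10 members, ΔcreA-ΔclrB that of 6 and ΔamyR that of 2. Among the 9176 genes tested these groups held the highest mean of 37.5%, 5.61% and 4.63%, and ΔcreA-gpdA(p)::clrB that of 2.27%, so the share highest on glucose was near that of all genes. The genes are therefore called below by the rule that chose them.

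Messenger RNA of this filamentous fungus was sequenced in 8 groups of 3 libraries. All strains derive from wild-type 114-2 and were grown for 22 h on 2% glucose before transfer, with 2 h in medium without a carbon source and a final 4 h in the test medium. The labels of the group without carbon source do not list the 2 h step, which the methods give for the study. Wild-type was collected on 2% cellulose, on 2% glucose and in medium with no carbon source, and 5 mutants on 2% cellulose. ΔclrB lacks the cellulase activator ClrB, ΔcreA lacks the repressor CreA, ΔcreA-ΔclrB lacks both, and ΔamyR lacks the amylase activator AmyR. ΔcreA-gpdA(p)::clrB lacks creA and carries clrB behind the constitutive gpdA promoter of *Aspergillus nidulans*, in a strain that was transformed with the overexpression construct first. A strain with constitutive clrB and intact creA was not analysed here, so the constitutive gene was seen only where creA was absent. The study describes the 3 libraries of a group as biological replicates. The labels number them and do not say which culture each came from. The p-values below measure the spread between these libraries, estimated over all 8 groups, including those that the rule used.

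ClrB is a zinc-cluster transcription factor that activates cellulase genes when cellulose or its breakdown products are sensed. CreA is the zinc-finger protein that mediates carbon catabolite repression, the shutdown of genes for poorer carbon sources while glucose is present. AmyR activates genes for starch breakdown. The gpdA promoter drives a glycolytic gene and is used for constitutive expression. ΔcreA-gpdA(p)::clrB was sequenced on cellulose only, so the level of its clrB on other carbon sources was not seen here. The gamma-aminobutyrate shunt, to which a pair of the members is annotated, carries 4-aminobutyrate through succinate semialdehyde to succinate, and so returns nitrogen and carbon from this amino acid to central metabolism.

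The libraries held between 6950123 and 8579128 reads in the 9176 genes tested, which are those with at least 1 RPKM in 3 libraries. The clrB gene had 376, 546 and 358 RPKM in the 3 ΔcreA-gpdA(p)::clrB libraries, against 106, 103 and 104 in ΔcreA and 108, 107 and 114 in wild-type on cellulose, and at most 3 reads in any library of ΔclrB or ΔcreA-ΔclrB. The creA gene had 0 reads in all 3 ΔcreA-gpdA(p)::clrB libraries. The amyR gene stood at 21.7, 16.3 and 21.8 RPKM there and at 119, 131 and 124 in ΔcreA, and xlnR, the xylanase activator, at 125, 119 and 64.1 against 51.6, 61.0 and 60.5. RPKM divides by the reads of all genes, and on that scale the median of the 9176 genes tested lay at a log2 ratio of -0.74 between ΔcreA-gpdA(p)::clrB and wild-type on cellulose and of -0.27 between it and ΔcreA. With each library scaled by edgeR's trimmed mean of M values (TMM) both medians were 0.01. Under that scaling the same rule found 62 genes, of which 22 were among the 29. The number of the 29 with their highest mean in ΔcreA-gpdA(p)::clrB then moved from 11 to 17, and those with it in ΔamyR from 2 to 0. Genes that mark spore formation (3 genes with the regulators FlbC and StuA) were present in every group, though PDE_04496 had only 0.477, 1.78 and 2.4 RPKM on glucose. Their summed level was mostly that of PDE_09832 (30201, 13429 and 23397 RPKM in ΔcreA-gpdA(p)::clrB). The sum ran from 15793 to 35875 RPKM in ΔcreA-gpdA(p)::clrB, with the lowest in replicate 2, and from 25841 to 41078 in ΔcreA. It ran from 12943 to 17331 in wild-type on cellulose and from 2572 to 3336 in ΔamyR. StuA (PDE_04095) did not follow the sum, with 288, 294 and 232 RPKM in ΔamyR and 207, 232 and 204 in wild-type on cellulose. The part of these genes in the levels below was not tested. In these bulk samples fewer cells of a kind and less RNA per cell cannot be told apart.

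The sources used here say little of what the 29 genes encode. No member is annotated as a transporter or a carbohydrate-active enzyme. PDE_05599 is annotated as succinate-semialdehyde dehydrogenase, PDE_09301 as 4-aminobutyrate aminotransferase, PDE_08743 as a 5-nitroimidazole antibiotic resistance protein and PDE_08996 as an FK506-binding nuclear protein, a peptidyl-prolyl isomerase. PDE_00249 carries the term oxidoreductase activity, and PDE_02517 was among the predicted regulators for which the study made deletion primers. Of the other members, 5 are listed as hypothetical proteins (PDE_00175, PDE_02070, PDE_02095, PDE_03928 and PDE_09084) and 18 have no annotation in these sources, and no function is given to them here. The coding lengths ran from 273 to 9624 bases with a median of 912, beside 1140 for all 9832 genes.

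**Figure D1:**
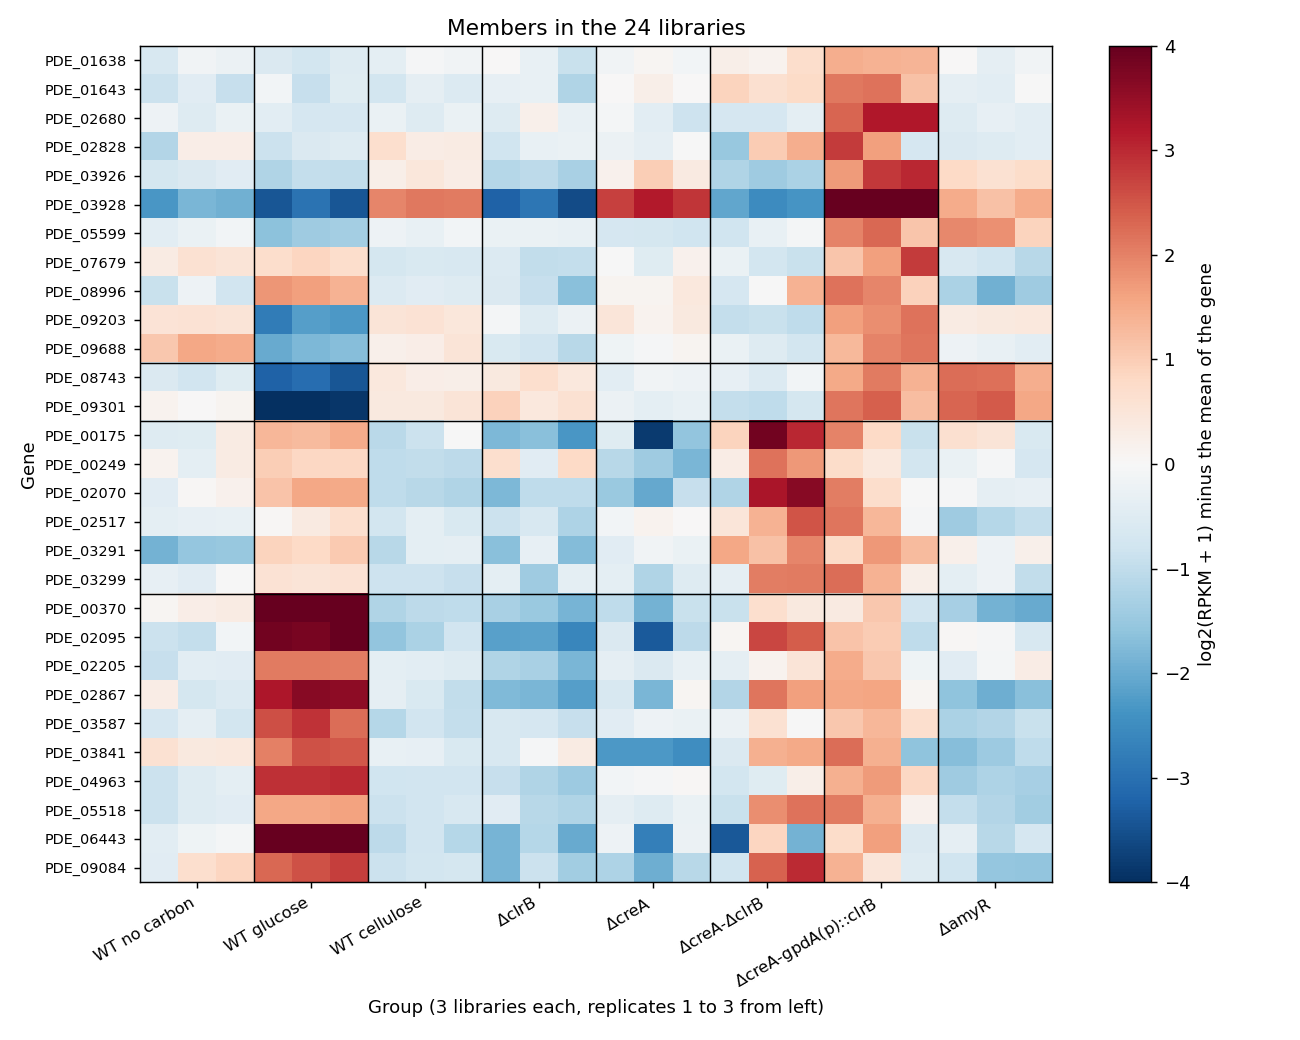
Level of the 29 members (rows) in the 24 libraries (columns, 3 for each group), as log2(RPKM + 1) minus the mean of the gene over all libraries, with red above and blue below that mean and values past the ends of the colour bar drawn in its end colours. Horizontal lines part the members by the group with their highest mean, from top to bottom 11 in ΔcreA-gpdA(p)::clrB, 2 in ΔamyR, 6 in ΔcreA-ΔclrB and 10 in wild-type on glucose.

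The values that chose the members are a description and carry no test. The ratio of the ΔcreA-gpdA(p)::clrB mean to the ΔcreA mean ran from 2.57 in PDE_02205 to 39.2 in PDE_02680, and the ratio to the wild-type mean on cellulose from 2.55 in PDE_00249 to 33.1 in PDE_02680. In 22 of the 29 every ΔcreA-gpdA(p)::clrB library lay above every ΔcreA and every wild-type cellulose library, where 3.16% of the 9176 genes tested did so, a share that cannot be read against the members because the rule used these libraries. The 7 whose libraries overlapped were PDE_00175, PDE_02095, PDE_02517, PDE_02828, PDE_02867, PDE_03841 and PDE_06443. In each of them replicate 3 of ΔcreA-gpdA(p)::clrB was the lowest of its group, and without that library all 29 were apart. With the lowest ΔcreA-gpdA(p)::clrB library set against the highest ΔcreA and wild-type library at the same 2.5-fold, 1 gene was left, PDE_02680.

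Genes lay close to either side of the 3 limits on ratios, and farther from the limit on level. The nearest members to the limit against ΔcreA were PDE_02205, PDE_02517 and PDE_04963 with ratios of 2.57, 2.64 and 2.65, and the nearest genes outside were PDE_03310, PDE_03927 and PDE_07738 with 2.48, 2.36 and 2.33. Against wild-type the nearest inside were PDE_00249, PDE_02205 and PDE_08743 with 2.55, 2.63 and 2.63, and outside PDE_01641, PDE_09864 and PDE_02384 with 2.43, 2.31 and 2.19. For the ratio of ΔcreA to wild-type, PDE_03928, PDE_07679 and PDE_04963 lay inside at 1.86, 1.69 and 1.67, and PDE_07153, PDE_03276 and PDE_03929 outside at 2.08, 2.33 and 2.47. The limit on level separated PDE_00370, PDE_02680 and PDE_02867, at means of 9.20, 12.7 and 13.2 RPKM, from PDE_03979, PDE_03308 and PDE_05973 at 3.80, 3.57 and 2.67 RPKM. Without replicate 3 of ΔcreA-gpdA(p)::clrB the rule found 64 genes, 28 of them among the 29, and without replicate 1 it found 29, of which 21 were among them. Without each of the 9 libraries of the rule in turn, 15 members were found every time.

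The members annotated to 4-aminobutyrate breakdown were high in a pair of strains and low on glucose. PDE_09301, the aminotransferase that starts the breakdown of 4-aminobutyrate, had 1010, 1195 and 541 RPKM in ΔcreA-gpdA(p)::clrB and 1157, 1248 and 671 in ΔamyR. It had 296, 301 and 327 RPKM in wild-type on cellulose, 431, 303 and 345 in ΔclrB, 194, 172 and 185 in ΔcreA and 118, 111 and 138 in ΔcreA-ΔclrB. Without carbon source it had 250, 230 and 245 RPKM, and on glucose 13.6, 12.2 and 14.4. The ΔcreA-gpdA(p)::clrB and ΔamyR libraries overlapped each other and lay above all other libraries.

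PDE_05599, the dehydrogenase that oxidises succinate semialdehyde to succinate, was also highest in ΔcreA-gpdA(p)::clrB and ΔamyR and lowest on glucose, at a lower level. It had 261, 328 and 142 RPKM in ΔcreA-gpdA(p)::clrB, 250, 233 and 122 in ΔamyR, 56.6, 52.9 and 60.3 in wild-type on cellulose and 40.4, 39.9 and 37.6 in ΔcreA. Its means in ΔclrB, wild-type without carbon source and ΔcreA-ΔclrB were 53.9 ± 1.09, 54.7 ± 6.11 and 50.6 ± 12.1 RPKM (SD, n = 3), which did not differ beyond their spread. The libraries on glucose were the lowest of all, at 20.3, 23.9 and 24.8 RPKM.

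PDE_08743, annotated as a resistance protein against 5-nitroimidazole drugs, had 457, 677 and 418 RPKM in ΔcreA-gpdA(p)::clrB and 752, 732 and 437 in ΔamyR. Its other groups ran from 225 ± 24.0 RPKM in ΔclrB through 197 ± 12.6 in wild-type on cellulose, 133 ± 12.2 in ΔcreA, 128 ± 19.8 in ΔcreA-ΔclrB and 103 ± 10.6 without carbon source to 15.9 ± 2.18 on glucose (SD, n = 3). ΔcreA, ΔcreA-ΔclrB and the group without carbon source overlapped in that order. The ΔamyR mean was above that of ΔcreA-gpdA(p)::clrB in PDE_09301 and PDE_08743 and not in PDE_05599, and under TMM scaling it was below it in every one of these 3 genes. Replicate 3 was the lowest of the 3 libraries in both strains for all 3 genes.

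The study had grouped these genes by their levels in ΔcreA, ΔcreA-gpdA(p)::clrB and ΔamyR in the same libraries, so their high level in ΔamyR is not independent evidence. The amyR gene stood between 0 and 21.8 RPKM in the libraries of both strains and at 35.2, 33.1 and 37.7 RPKM on glucose, and its part in these levels was not tested. Among all 29 members, 8 had every ΔamyR library above every wild-type cellulose library, where 6.09% of all genes tested did so, and nothing is read from this share because the rule used the wild-type libraries.

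**Figure D2:**
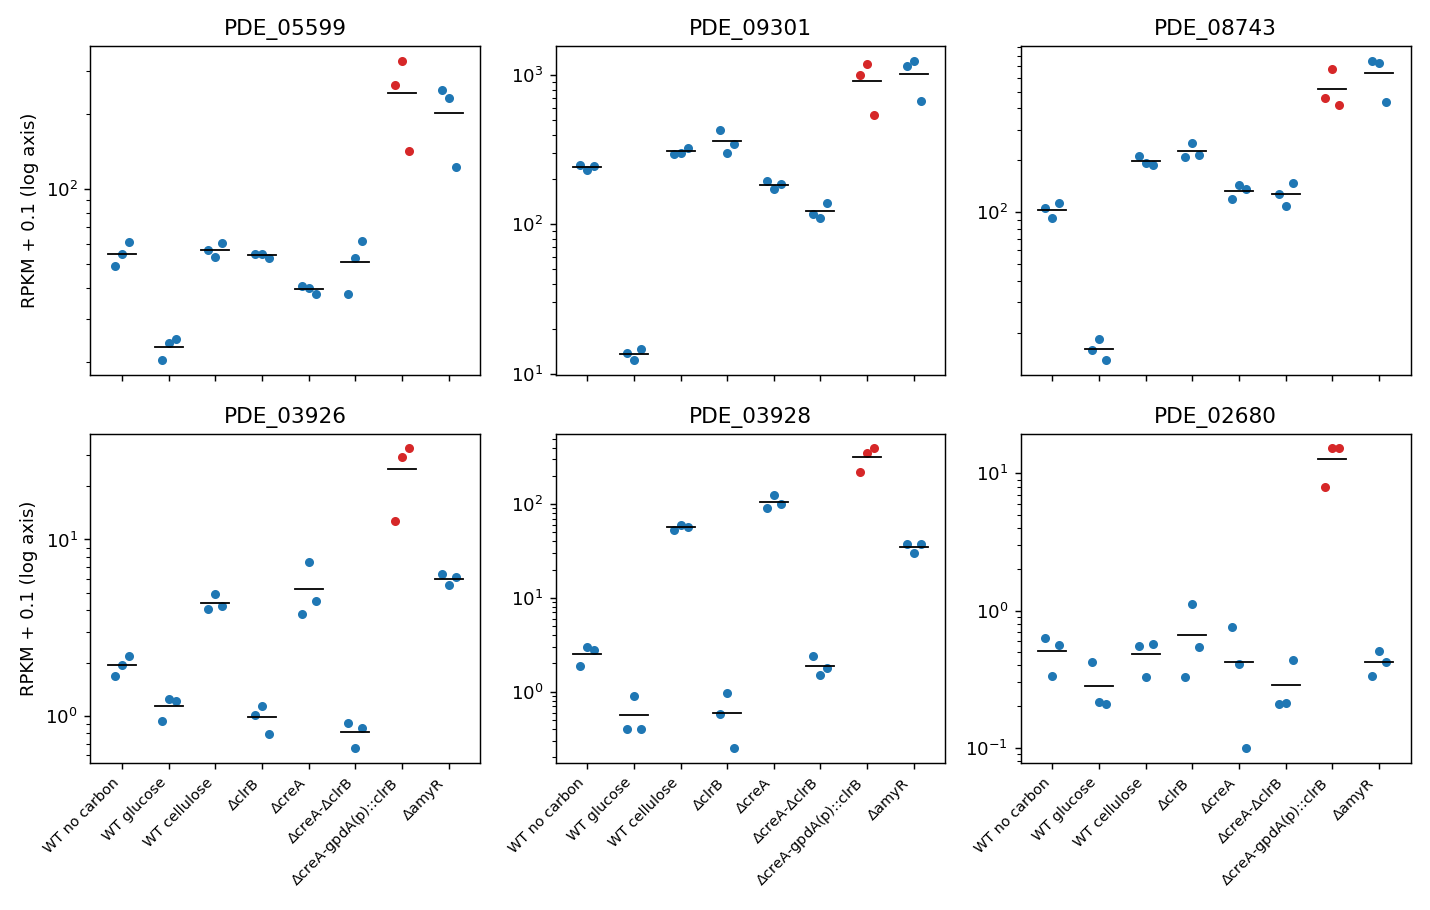
RPKM + 0.1 on a log axis in the 8 groups for 6 members, with 1 point for each library, a line at the group mean, and ΔcreA-gpdA(p)::clrB in red. PDE_05599, PDE_09301 and PDE_08743 are high in ΔcreA-gpdA(p)::clrB and ΔamyR, PDE_03926 and PDE_03928 are low in ΔclrB and ΔcreA-ΔclrB, and PDE_02680 stands above 1.01 RPKM in the ΔcreA-gpdA(p)::clrB libraries alone.

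No 2 members have consecutive identifiers, so the group holds no run. The closest pair is PDE_03926 and PDE_03928, which are 2 identifiers apart. PDE_03928 (825 coding bases) had 222, 351 and 392 RPKM in ΔcreA-gpdA(p)::clrB, a mean of 105 ± 17.1 (SD, n = 3) in ΔcreA, 52.5, 59.3 and 57.5 in wild-type on cellulose and 37.5, 30.2 and 37.4 in ΔamyR. It had 0.474, 0.872 and 0.153 RPKM in ΔclrB, which are 3, 5 and 1 reads, and 2.28, 1.41 and 1.71 in ΔcreA-ΔclrB. On glucose it had 2, 5 and 2 reads. The order of the means on cellulose was ΔcreA-gpdA(p)::clrB, ΔcreA, wild-type, ΔamyR, ΔcreA-ΔclrB and ΔclrB, with no overlap between neighbours in that order.

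PDE_03926, the longest member at 9624 coding bases, had 12.7, 29.1 and 32.6 RPKM in ΔcreA-gpdA(p)::clrB. The other cellulose groups with an intact clrB gene were at 3.95, 4.81 and 4.13 in wild-type, 3.71, 7.38 and 4.39 in ΔcreA and 6.24, 5.44 and 6.0 in ΔamyR. The groups without clrB were at 0.922, 1.05 and 0.694 in ΔclrB and 0.820, 0.564 and 0.758 in ΔcreA-ΔclrB. Wild-type, ΔcreA and ΔamyR were within the spread of ΔcreA, whose libraries enclosed those of both others, while every library without clrB lay below every cellulose library with it.

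The gene between them and the next ones after them were looked at once the members' values had been seen. PDE_03927 had means of 631 RPKM in ΔcreA-gpdA(p)::clrB, 268 in ΔcreA, 191 in wild-type on cellulose, 3.67 in ΔclrB and 6.79 in ΔcreA-ΔclrB, and missed the rule by its ratio to ΔcreA. PDE_03929 had 37.9, 14.6, 5.91, 0.778 and 0.670 RPKM in the same groups and PDE_03930 had 168, 43.6, 15.4, 0.328 and 0.551. Both passed the limits on ΔcreA-gpdA(p)::clrB and missed the rule because their ΔcreA mean was over 2 times that of wild-type. The 5 genes from PDE_03926 to PDE_03930 thus had the same order of ΔcreA-gpdA(p)::clrB, ΔcreA and wild-type means, though in PDE_03926 the ΔcreA and wild-type libraries overlapped. In each gene the means of both strains without clrB were below that of wild-type on cellulose. With clrB intact, PDE_03927, PDE_03929 and PDE_03930 were also low in wild-type off cellulose. Their means were 6.27, 1.44 and 0.531 RPKM without carbon source and 0.677, 0.946 and 0.26 on glucose.

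PDE_02680 had 76, 148 and 142 reads in the ΔcreA-gpdA(p)::clrB libraries and at most 8 reads in any other. In RPKM these are 7.82, 15.1 and 15.1, and the other groups had means between 0.182 on glucose and 0.560 in ΔclrB, which did not differ beyond the counting error of so few reads. Reads covered 92.37, 98.33 and 99.65% of its coding length in ΔcreA-gpdA(p)::clrB and at most 28.42% elsewhere. The next gene, PDE_02681, had 257, 550 and 577 reads in ΔcreA-gpdA(p)::clrB, 10, 10 and 18 in ΔcreA, and at most 7 in any other library. It passed the limits on ΔcreA-gpdA(p)::clrB but had a ΔcreA mean of 1.67 RPKM against 0.553 in wild-type. The gene after it, PDE_02682, was expressed in all groups, with means of 445 RPKM in ΔcreA-gpdA(p)::clrB, 255 in ΔcreA and 54.1 in wild-type on cellulose.

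Of the 111 genes within 2 identifiers of a member that are not members themselves, 4 passed the limits on ΔcreA-gpdA(p)::clrB. These were PDE_01637, PDE_02681, PDE_03929 and PDE_03930, and all 4 missed the rule by their ΔcreA mean. Among all 9832 genes, 17 with reads in wild-type on cellulose passed those limits and missed the rule in the same way, these 4 included. PDE_01637, next to PDE_01638, had means of 2102, 279 and 77.7 RPKM in ΔcreA-gpdA(p)::clrB, ΔcreA and wild-type on cellulose. PDE_01638 itself was the steadiest member, with 141, 135 and 132 RPKM in ΔcreA-gpdA(p)::clrB. It had 45.8, 54.4 and 47.7 RPKM in ΔcreA and 38.7, 49.1 and 46.0 in wild-type on cellulose, and its highest mean outside the rule was 67.0 ± 14.7 RPKM (SD, n = 3) in ΔcreA-ΔclrB. On either side of PDE_03291, PDE_03290 and PDE_03292 shared its means above wild-type on cellulose in both ΔcreA-gpdA(p)::clrB (531 against 195 RPKM, and 1188 against 566) and ΔcreA-ΔclrB (615 and 3299 RPKM).

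Other members with their highest mean in ΔcreA-gpdA(p)::clrB had diverse levels elsewhere. PDE_01643, with 88.7, 92.0 and 45.8 RPKM there, was next highest in ΔcreA-ΔclrB (37.1, 31.3 and 34.3), and all its other groups had means between 11.6 and 21.3 RPKM. PDE_07679 had 10.5, 15.8 and 36.4 RPKM there and means of 2.01 to 8.02 in the other groups, the highest of them on glucose. PDE_08996, the FK506-binding protein, had 243, 206 and 101 RPKM there and 181, 167 and 141 on glucose, and the libraries of these groups overlapped. PDE_02828, the shortest member at 273 coding bases, had 381, 169 and 33.7 RPKM in ΔcreA-gpdA(p)::clrB, a range that encloses its mean in every other group.

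PDE_09203 and PDE_09688 were above the other groups in ΔcreA-gpdA(p)::clrB and low on glucose. PDE_09203 had 180, 211 and 262 RPKM in ΔcreA-gpdA(p)::clrB and means of 83.9 without carbon source, 82.0 in wild-type on cellulose, 74.7 in ΔamyR, 72.7 in ΔcreA, 47.1 in ΔclrB, 28.8 in ΔcreA-ΔclrB and 9.90 on glucose. PDE_09688 had 30.9, 50.6 and 56.7 RPKM there against 26.6, 37.1 and 35.5 without carbon source, so that these groups overlapped, and 2.23, 2.77 and 2.98 on glucose.

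The first comparison that shares no library with the rule set wild-type on glucose against wild-type without carbon source, which asks what the 4 h on glucose did to these genes. On glucose 15 of the 29 members rose and 6 fell, by edgeR's quasi-likelihood test with a Benjamini-Hochberg adjusted p under 0.05 and a log2 fold change beyond 1. In the background, 19.5% of the 9176 genes tested rose and 23.1% fell. The median log2 fold change of the members was 1.04, beside 0.05 for all genes. PDE_02680 is among the genes tested only through its ΔcreA-gpdA(p)::clrB libraries, which the rule used. It counts among the 29 and was called in no tested comparison.

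The largest increase on glucose was in PDE_06443, from 105, 126 and 133 RPKM to 5551, 6517 and 7956, a log2 fold change of 5.99 ± 0.84 (SE, adjusted p = 2.6e-06 by edgeR). Its ΔcreA-gpdA(p)::clrB libraries, at 238, 441 and 94.3 RPKM, were far below every glucose library. PDE_00370 rose from 7.08, 8.21 and 8.68 RPKM to 236, 293 and 296 (5.31 ± 0.49, adjusted p = 7.1e-09 by edgeR), and PDE_02095 from 113, 106 and 192 to 3002, 2889 and 3441 (4.71 ± 0.66, adjusted p = 2.7e-06 by edgeR). These 3 genes, with PDE_02867 (6.52, 2.76 and 3.18 RPKM to 56.7, 74.9 and 71.5, log2 fold change 4.19), were also the members with the largest excess of a group outside the rule over ΔcreA-gpdA(p)::clrB, with glucose means 25.9, 29.9, 9.55 and 5.15 times the ΔcreA-gpdA(p)::clrB mean.

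The other members that rose on glucose included PDE_04963, from 169, 216 and 236 RPKM to 2366, 2368 and 2434, and PDE_02205, from 160, 228 and 221 to 1277, 1289 and 1261. PDE_08996, which encodes a protein of the family that helps other proteins fold, rose from 28.1, 46.0 and 30.8 RPKM to 181, 167 and 141 (log2 fold change 2.44). PDE_03587, PDE_03291, PDE_05518, PDE_09084 and PDE_03841 rose by log2 fold changes of 3.53, 2.77, 2.41, 2.31 and 2.08. PDE_00175, PDE_02070 and PDE_00249 rose by 1.73, 1.69 and 1.04, and each of these calls was lost under 7 or 8 of the 14 alternative settings, with log2 fold changes from 1.52 to 2.05, 1.48 to 1.8 and 0.83 to 1.18. In all 15 genes every glucose library was above every library without carbon source. The share of all genes tested with libraries apart was not counted, here or in the comparisons below. This and the like counts below describe the called genes and add no support to the calls.

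The members that fell on glucose included all 3 of the annotated genes that were high in ΔamyR. PDE_09301 had the largest decrease (log2 fold change -3.97 ± 0.27, adjusted p = 1.0e-10 by edgeR). PDE_09688 (-3.42 ± 0.24) and PDE_09203 (-2.88 ± 0.16, adjusted p = 7.7e-12 by edgeR) came next, the latter from 84.5, 85.4 and 81.8 RPKM to 7.36, 11.6 and 10.7. PDE_08743 fell by 2.5 on the log2 scale and PDE_05599 by 1.04, a call lost without replicate 3 of the group without carbon source and without replicate 1 of the glucose group (-0.97 to -1.25 over the alternatives). PDE_03928 fell from 12, 18 and 17 reads to 2, 5 and 2. In all 6 the libraries of both groups were apart.

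The next comparison set ΔcreA-ΔclrB against ΔclrB, which asks what loss of creA did where clrB was absent, and it shares no library with the rule. It called 18 of the 29 members higher and 1 lower, beside 9.99% and 7.99% of all genes tested. With library totals as the only scaling 16 members were higher and 1 lower, beside 577 and 1249 of all genes in place of 917 and 733. The median log2 fold change was 1.44 in the members and 0.02 in all genes. The increases were largest in PDE_00175, from 63.1, 69.9 and 43.5 RPKM to 417, 3297 and 1827 (log2 fold change 5.23 ± 0.82, adjusted p = 6.7e-05 by edgeR), PDE_02867, from 0.796, 0.703 and 0.308 RPKM (5, 4 and 2 reads) to 1.68, 26.1 and 18.0 (4.87 ± 0.84, adjusted p = 0.00017 by edgeR), and PDE_02095, from 44.5, 46.2 and 32.7 to 220, 1327 and 1119 (4.68 ± 0.67, adjusted p = 3.0e-05 by edgeR). Replicate 1 of ΔcreA-ΔclrB was the lowest of its group in all 3.

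PDE_02070 had 25.0, 44.2 and 43.9 RPKM in ΔclrB and 38.8, 883 and 1139 in ΔcreA-ΔclrB, so that the groups overlapped, and its fitted log2 fold change was 4.41 ± 0.73. PDE_09084 went from 48.1, 97.2 and 66.6 RPKM to 101, 917 and 1396 (3.74), and PDE_05518 from 67.5, 41.9 and 39.8 to 49.3, 337 and 417 (2.68). In each of these, too, replicate 1 lay close to the ΔclrB libraries and the other replicates far above them. PDE_03291 rose in all 3 libraries, from 91.3, 235 and 87.8 RPKM to 869, 669 and 1137 (2.96 ± 0.34, adjusted p = 4.1e-06 by edgeR).

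PDE_02517, the predicted regulator, rose from 21.0, 24.5 and 16.0 RPKM to 55.0, 102 and 225, a log2 fold change of 2.88. PDE_03299, PDE_00370, PDE_02205, PDE_08996, PDE_01643 and PDE_00249 rose by 2.52, 2.49, 1.83, 1.78, 1.66 and 1.42. PDE_03587, PDE_04963 and PDE_01638 rose by 1.27, 1.19 and 1.02. PDE_03928 was called higher at 15, 9 and 11 reads against 3, 5 and 1, levels far below the 335 to 376 reads of wild-type on cellulose. In 14 of the 18 the libraries of both groups were apart, the exceptions being PDE_00249, PDE_02070, PDE_05518 and PDE_08996. The share of all genes was not counted for this either. The calls of PDE_00249 and PDE_03587 were lost without replicate 2 of ΔcreA-ΔclrB, those of PDE_01638, PDE_04963 and PDE_08996 without its replicate 3, and that of PDE_01638 also without replicate 3 of ΔclrB.

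PDE_09301 was the only member that fell in ΔcreA-ΔclrB (log2 fold change -1.29 ± 0.24, adjusted p = 0.00036 by edgeR), from 431, 303 and 345 RPKM to 118, 111 and 138. Its partner in 4-aminobutyrate breakdown, PDE_05599, had a log2 fold change of 0.16 ± 0.26. PDE_08743 and PDE_09203 had log2 fold changes of -0.55 and -0.44 that were short of the limit of 1, with all 3 libraries of ΔcreA-ΔclrB below those of ΔclrB. PDE_03926 was at -0.04 ± 0.34, and PDE_02680 had at most 8 reads in any of these libraries.

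The last tested comparison set ΔamyR against ΔclrB, which shares the ΔclrB libraries with the one before. It called 9 members higher, beside 1.45% of all genes tested, and 0 lower, beside 2.94%. With library totals alone the members' counts were the same, beside 94 and 498 of all genes in place of 133 and 270. At an unadjusted p under 0.05, 13 were higher and 0 lower by edgeR, and limma and DESeq2 also called 0 members lower. PDE_03928 had the largest difference, 37.5, 30.2 and 37.4 RPKM in ΔamyR (231, 213 and 251 reads) against 3, 5 and 1 reads in ΔclrB (log2 fold change 6.34 ± 0.36, adjusted p = 6.3e-11 by edgeR). PDE_03926 followed with 2.96 ± 0.32 (adjusted p = 2.2e-06 by edgeR). Wild-type on cellulose, with means of 56.4 and 4.30 RPKM, lay above ΔclrB in both genes, and ΔamyR lay below wild-type in PDE_03928 and above it in PDE_03926.

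PDE_00175, PDE_02095, PDE_05599, PDE_09301, PDE_08743, PDE_02205 and PDE_03291 were also higher in ΔamyR than in ΔclrB, by log2 fold changes of 2.45, 2.37, 2.14, 1.75, 1.74, 1.62 and 1.39. The call of PDE_00175 was lost under 7 alternatives (log2 fold change 2.12 to 2.77) and that of PDE_02095 under 3 (2.09 to 2.56). In all 9 the libraries of both groups were apart. PDE_03841 had the lowest log2 fold change (-1.12 ± 0.57, adjusted p = 0.23 by edgeR), with 38.5, 45.6 and 62.6 RPKM in ΔamyR and 81.4, 123 and 161 in ΔclrB.

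**Figure D3:**
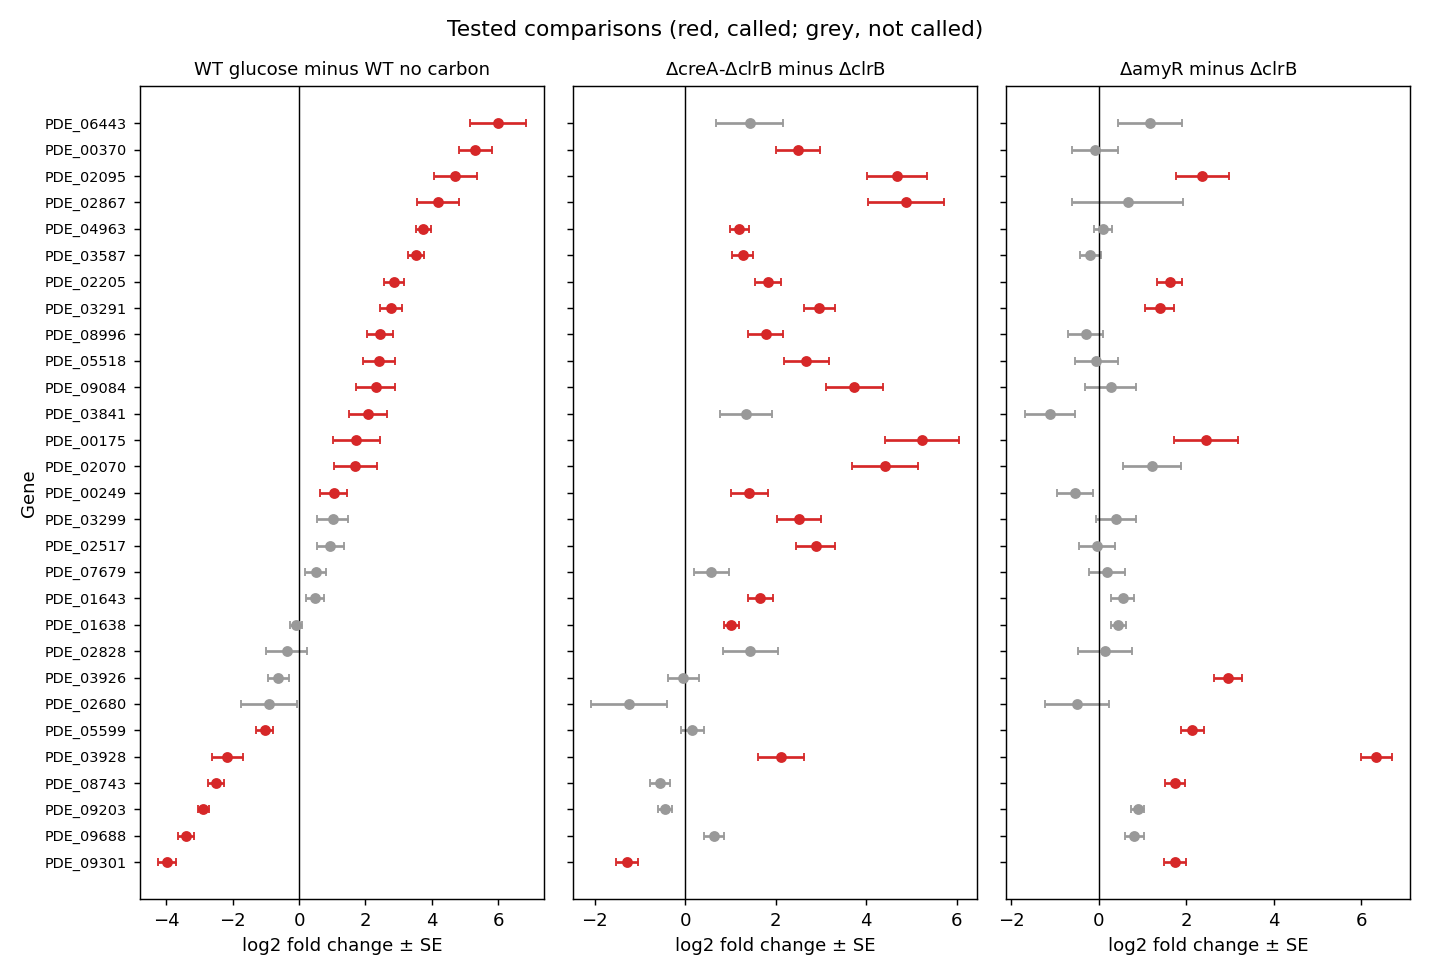
Log2 fold change with its standard error for the 29 members (rows, ordered by the glucose comparison) in the 3 comparisons tested by edgeR on 3 libraries a group, with called genes in red and genes not called in grey. The called members number 15 higher and 6 lower on glucose, 18 higher and 1 lower in ΔcreA-ΔclrB, and 9 higher and 0 lower in ΔamyR.

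Set beside wild-type on cellulose, whose libraries the rule used, the mean of ΔclrB was lower in 22 of the 29 members, a share near the 71.9% of all genes tested, and 12 had every ΔclrB library below every wild-type library, where 29.5% of all genes tested did so. These are descriptions with no test. The smallest ratios of ΔclrB to wild-type were 0.00886 in PDE_03928, 0.203 in PDE_02867 and 0.207 in PDE_03926. PDE_00249, with 39.7, 17.7 and 43.3 RPKM in ΔclrB and 11.6, 12 and 11.5 in wild-type, was the 1 member with every ΔclrB library above. The fitted log2 difference between ΔclrB and wild-type on cellulose had a median of -0.23 over the members and 0.00 over all genes.

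Loss of clrB in the ΔcreA background, also a description, went with higher means in 20 members and lower means in 9. Of all genes tested 52.0% had higher means, a share not read against the members because the rule used the ΔcreA libraries. PDE_00175, PDE_02070 and PDE_09084 had ΔcreA-ΔclrB means 22.1, 20.7 and 12 times those of ΔcreA. PDE_03928 and PDE_03926 had means 0.0171 and 0.138 times those of ΔcreA, and PDE_09203 0.397 times. In 10 members the mean in ΔcreA-ΔclrB was above that in ΔcreA-gpdA(p)::clrB, as in 66.9% of all genes, a count that the rule bears on because it chose genes high in the latter. Of these, PDE_00175, PDE_02070 and PDE_09084 had the largest ratios, at 3.93, 3.39 and 2.88 times. PDE_03841 was the member lowest in ΔcreA relative to wild-type, with 25.3, 25.2 and 22.2 RPKM against 104, 102 and 82.9, so that its ratio of 13.6 between ΔcreA-gpdA(p)::clrB and ΔcreA stood beside one of 3.41 to wild-type.

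The 3 libraries of ΔcreA-gpdA(p)::clrB differed more in the members than in most genes. The highest was at least 2 times the lowest in 20 of the 29 members, beside 27.5% of all genes tested, and the median of that ratio was 2.94 in the members and 1.52 in all genes. It reached 14.6 in PDE_03841 (604, 341 and 41.3 RPKM), 11.3 in PDE_02828 and 7.43 in PDE_00175 (898, 392 and 121 RPKM). Replicate 3 was the lowest of the group in 22 members and replicate 1 in the other 7, where they were the lowest in 33.0% and 30.7% of all genes tested. The rule acted on the mean of these libraries, so this spread describes the members and is not independent of their choice.

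The spread in the double mutant did not enter the rule. Replicate 1 of ΔcreA-ΔclrB was the lowest of its group in 19 of the 29 members and in 42.9% of all genes tested. In 12 members it was below 0.5 times each of the other libraries, which held for 8.09% of all genes. The median ratio of the highest to the lowest library was 3.06 in the members and 1.57 in all genes, and it was 29.4 in PDE_02070 (38.8, 883 and 1139 RPKM). In the other groups the median ratio ran from 1.20 to 1.70 in the members and from 1.17 to 1.39 in all genes.

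In 18 of the 22 members with their lowest ΔcreA-gpdA(p)::clrB level in replicate 3, replicate 1 was the lowest of ΔcreA-ΔclrB, beside 54.4% of all genes tested with replicate 3 lowest. In 19 of those 22 the ΔcreA-ΔclrB mean was above the ΔcreA mean, beside 68.4% of the same genes. Of the 7 members with their lowest level in replicate 1 (PDE_02680, PDE_03291, PDE_03926, PDE_03928, PDE_07679, PDE_09203 and PDE_09688), 6 had a ΔcreA-ΔclrB mean below that of ΔcreA, the exception being PDE_03291, beside 55.9% of all genes tested with replicate 1 lowest. The highest ΔcreA-gpdA(p)::clrB library was replicate 1 in 13 members, replicate 2 in 11 and replicate 3 in 5. Over all genes these shares were 44.3%, 17.9% and 37.8%. The clrB gene itself was highest in replicate 2. Nothing is read from the shares in this paragraph, because the rule used the ΔcreA-gpdA(p)::clrB and ΔcreA libraries.

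Replicate 2 of ΔcreA stood apart in a smaller number. It was below 0.5 times each of the other ΔcreA libraries in 5 members, beside 2.78% of all genes. PDE_00175 had 161, 14.7 and 74.7 RPKM in ΔcreA, PDE_02095 had 138, 19.4 and 99.9, and PDE_06443 had 122, 20.4 and 120. Without that library 27 of the 29 members were found by the rule.

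**Figure D4:**
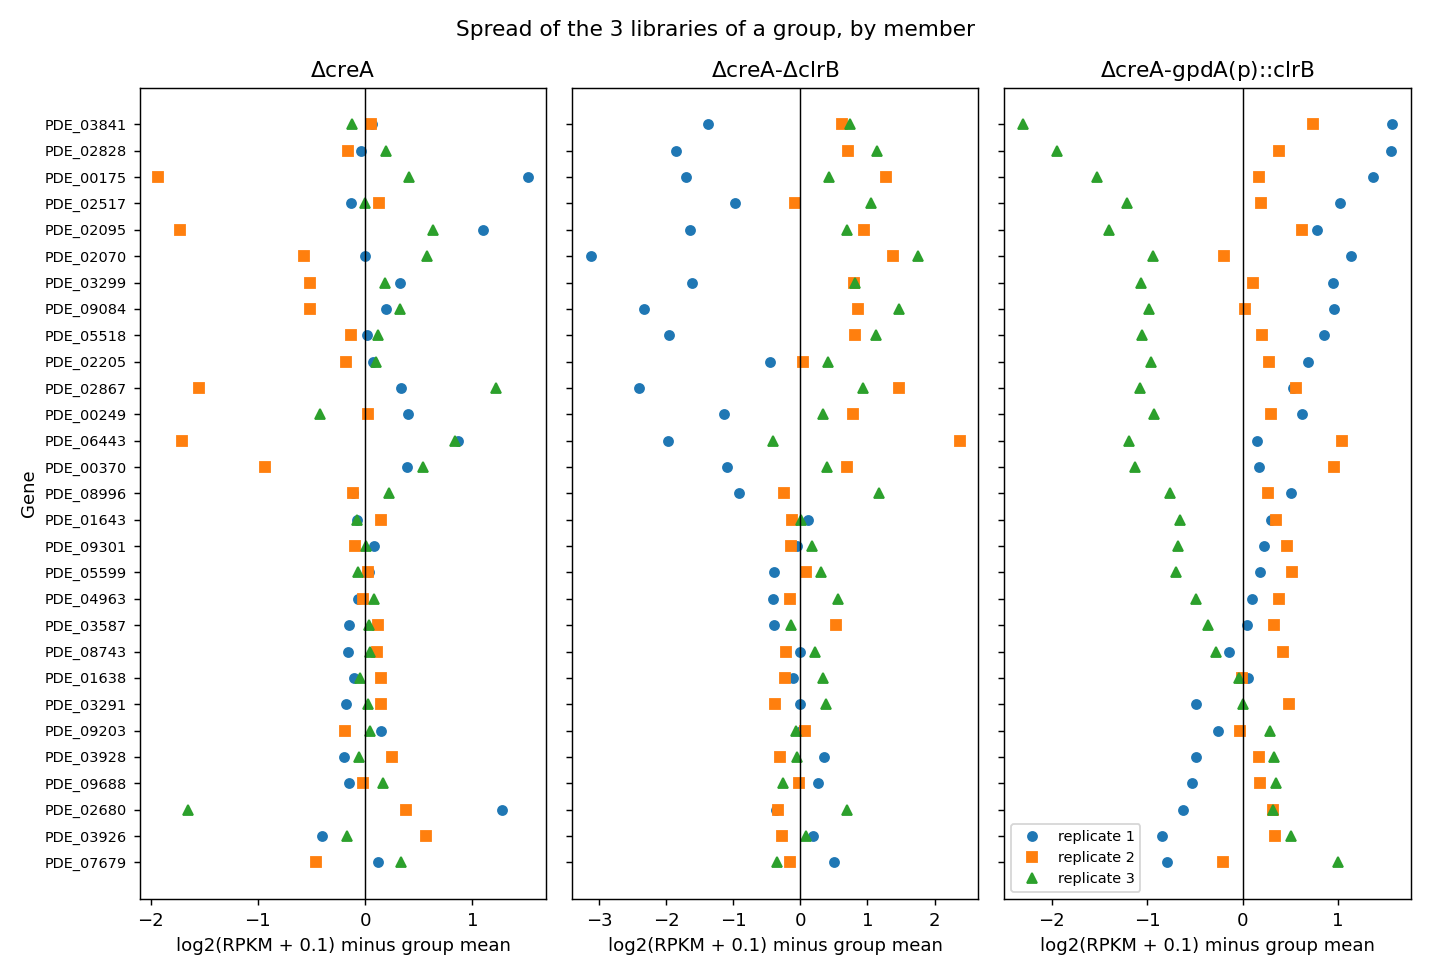
Log2(RPKM + 0.1) of each library minus the mean of its group for the 29 members (rows, ordered by the ratio of replicate 1 to replicate 3 in ΔcreA-gpdA(p)::clrB), in ΔcreA, ΔcreA-ΔclrB and ΔcreA-gpdA(p)::clrB. Replicate 3 is the lowest ΔcreA-gpdA(p)::clrB library in 22 members and replicate 1 the lowest ΔcreA-ΔclrB library in 19.

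Genes of the cellulase system were looked at in the same way. None of the 18 cellulase, 4 beta-glucosidase, 5 sugar transporter, 16 hemicellulase and 5 amylolytic genes and 20 regulators of the study's screen was a member. The clrB gene, 1 of these regulators, met the limits and had been left out. Its means were 427, 104 and 110 RPKM in ΔcreA-gpdA(p)::clrB, ΔcreA and wild-type on cellulose. Members are 29 of 9832 genes, and nothing is read from their absence from these short lists. In 13 of the 18 cellulase genes the ΔcreA mean was at least 2 times that of wild-type, which the rule bars. The study named the hemicellulase, sugar transporter, amylolytic and sporulation genes and 3 of the beta-glucosidase genes in gene groups that it formed on these libraries. The counts of these lists below are therefore not independent of that choice. In the glucose comparison 3 cellulase genes rose and 10 fell, 3 beta-glucosidase genes, all 5 sugar transporter genes and all 5 amylolytic genes fell, 1 hemicellulase gene rose and 10 fell, and 1 of the regulators rose and 6 fell. In ΔcreA-ΔclrB against ΔclrB, 4 cellulase genes, 0 beta-glucosidase genes, 1 sugar transporter gene, 8 hemicellulase genes and all 5 amylolytic genes rose, and 2 regulators fell. In ΔamyR against ΔclrB, 12 cellulase genes, 3 beta-glucosidase genes, 5 sugar transporter genes, 8 hemicellulase genes and 3 regulators rose. In the same comparison 1 cellulase gene, 4 amylolytic genes and 1 regulator fell. The regulator list holds clrB, creA and amyR, which these mutants lack, so changes in them were set by the strains. From ΔclrB to ΔamyR the mean of clrB went from 0.0941 to 110 RPKM and that of amyR from 148 to 0.0242. From ΔclrB to ΔcreA-ΔclrB that of creA went from 206 to 0.101 RPKM. Of the 5 sporulation and developmental genes 3 fell on glucose, 0 were called in ΔcreA-ΔclrB and 2 were lower in ΔamyR than in ΔclrB. The members' median log2 fold changes in these 3 comparisons, 1.04, 1.44 and 0.55, stand beside -1.41, 0.36 and 5.14 for the cellulase genes.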

How the data were processed

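Messenger RNA of 24 samples was sequenced on an Illumina platform (the submitters' notes name CASAVA 1.8). Per the methods, the authors mapped reads to predicted transcripts of the 114-2 genome with SOAP2 (version not given in the sources used here). The deposited gene table gives whole-number counts of uniquely mapped reads, deposited RPKM values (counts divided by coding length and by the total of each library) and the percent of each gene covered, in 9832 genes, as the authors computed them. Reads in the genes tested ran from 6950123 to 8579128 per library, and intervals or limits on low reads cover counting error only. A dash was read as 0 reads, and 0 columns lacked a sample. Libraries of a group correlated at 0.948 to 0.993 (Pearson's r of log2(RPKM + 1) across genes, which are not independent replicates).

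The 29 members come from the group means of RPKM. The members and the gene lists were chosen with earlier results of these data known. Named genes are the targeted genes, the members with the largest ratios, levels and tested changes, those annotated, and those nearest each limit. All members are named. Counts of the 9176 genes with at least 1 RPKM in 3 libraries were fitted with edgeR 4.0.16 (quasi-likelihood, TMM scaling, 8 group means, R 4.3.3). Calls needed a Benjamini-Hochberg adjusted p under 0.05 over all genes and a log2 fold change beyond 1, and SE was the log2 fold change divided by the root of F. Only comparisons without the 3 groups of the rule were tested. The fit took its spread from all 24 libraries, so the SE and p-values are not fully independent of the libraries that chose the members. With the 2 groups alone, 14 members were called higher and 6 lower on glucose. Scripts were tested on simulated data. Alternatives were limma 3.58.1 on log2(RPKM + 1) and log2(RPKM + 0.1), DESeq2 1.42.0, no filter, other scalings, the 2 groups alone, a replicate block, and leaving out each library. The lists (cellulases, beta-glucosidases, sugar transporters, hemicellulases, amylolytic genes, regulators, and sporulation and developmental genes) are described by counts. Identifiers of this strain matched 0 entries of the reference gene table, so names come from the study's text and tables and no sequence is shown.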

Additional observations from a re-analysis of the deposited data

Results flagged for a closer look

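In 4 members, the loss of one gene went with opposite changes in 2 strains in every library, and the difference between the strains was not tested. The wild-type cellulose and ΔcreA libraries in it are ones that the rule used. The share of all genes tested with such opposite changes was not counted, and nothing is read from the number of members. Loss of clrB went with lower levels in wild-type background and higher levels in ΔcreA background for PDE_00175 (log2 ratios of mean RPKM -1.35 and 4.47, a difference of 5.82), PDE_02095 (-1.16 and 3.37, a difference of 4.54) and PDE_00370 (-0.64 and 1.74, a difference of 2.38). Loss of creA went with a lower level of PDE_09084 in wild-type background (log2 ratio -0.63) and a higher level in ΔclrB background (3.51), a difference of 4.14. Replicate 1 of ΔcreA-ΔclrB was the lowest of its group in each of these 4 genes. In PDE_00370 it had 3.18 RPKM against 3.17 in the highest ΔcreA library. In PDE_09084 it had 101 RPKM against 97.2 in the highest ΔclrB library. The rise in these genes thus rests mostly on the other ΔcreA-ΔclrB libraries.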

How the results depend on the processing

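Of the 49 calls of members in the 3 tests, 36 were kept under every alternative and 13 were lost under at least 1, and none changed direction. The counts of members called ran from 12 to 15 higher and 5 to 6 lower on glucose, from 14 to 21 higher and always 1 lower in ΔcreA-ΔclrB, and from 7 to 10 higher and always 0 lower in ΔamyR. Over all genes, ΔcreA-ΔclrB against ΔclrB gave 433 higher with limma on log2(RPKM + 1), 466 higher and 1270 lower with limma on log2(RPKM + 0.1), and 577 higher and 1249 lower with library totals as the only scaling. ΔamyR against ΔclrB gave 87 higher with limma on log2(RPKM + 1), 452 lower with limma on log2(RPKM + 0.1) and 498 lower with library totals. It gave 153 to 271 lower when 1 library was left out, the lowest without replicate 2 of ΔamyR. Limma and library totals leave the RPKM scaling in place, and the cause of the other shifts was not tested.

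The rule itself found 62 genes on RPKM scaled by TMM factors, 15 at 3-fold, 84 at 2-fold, 1 when the lowest library was set against the highest ones, and 24 to 64 when 1 library was left out, the most without replicate 3 of ΔcreA-gpdA(p)::clrB. In alternatives chosen after seeing the data, the members highest in ΔcreA-gpdA(p)::clrB numbered 17 and those highest in ΔamyR 0 under TMM scaling, and the latter 1 to 2 when a library that stood apart was left out, with 1 without replicate 3 of ΔcreA-gpdA(p)::clrB.

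The calls of PDE_00175 on glucose were lost without replicate 1 or 2 of the group without carbon source and without replicate 1 or 3 of the glucose group, those of PDE_02070 likewise with replicate 2 in place of 1 in the glucose group, and those of PDE_00249 without replicate 2 of the former or 1 of the latter. In ΔamyR against ΔclrB, PDE_00175 lost its call without any ΔclrB library or without replicate 1 or 2 of ΔamyR, and PDE_02095 without replicate 3 of ΔclrB or replicate 1 or 2 of ΔamyR.

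Equal replicate numbers gave no sign of pairing in the tested comparisons. The correlations of same-numbered deviations were 0.043, 0.015 and 0.106 on glucose, -0.06, -0.044 and -0.178 in ΔcreA-ΔclrB and 0.022, -0.071 and 0.001 in ΔamyR. Pairing that involves the groups of the rule was not tested. With the replicate block the members called were 15 higher and 6 lower, 18 higher and 1 lower, and 9 higher and 0 lower, and over all genes 1777 and 2119, 893 and 741, and 133 and 257. Depth limits PDE_02680, PDE_02867 and PDE_03928 in the groups where they had at most 8 reads.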
